A study of Mus musculus with 18 samples.

Results

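The 36 genes described here encode aminoacyl-tRNA synthetases of the mouse, the enzymes that load amino acids onto tRNAs. They were chosen by name from the GENCODE M21 annotation, by a rule that uses no measured value, although earlier results of these data were known. Of them, 20 encode cytosolic enzymes or enzyme subunits and 16, whose symbols end in 2, encode mitochondrial enzymes. They are 36 of the 53458 genes measured, and all 36 were among the 21565 genes that passed the filter on low counts. RNA was sequenced from 3 bone marrow populations of C57BL/6 mice, sorted by flow cytometry. Hematopoietic stem cells (HSC) were lineage-negative, carried Sca-1, c-kit and CD150 and lacked CD48. PreMegE cells, progenitors of megakaryocytes and red cells, and preCFU-E cells, progenitors committed to red cells, carried c-kit and CD150 and lacked lineage markers, Sca-1, CD41 and FcgRII/III; preCFU-E cells carried CD105 and preMegE cells did not. Each population came from Ptbp1 knockout mice (KO) and from mice with loxP-flanked Ptbp1 alleles (Ptbp1 fl/fl, called WT), with 3 libraries in each of the 6 groups, or 18 in all. The labels do not give the Cre driver, the age or the sex of the mice, and they call the libraries biological replicates without saying how many animals each came from.

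A synthetase activates its amino acid with ATP and transfers it to the matching tRNA, which the ribosome then uses for translation. The cytosol and the mitochondrion translate with separate tRNAs, so that most amino acids have a cytosolic and a mitochondrial enzyme from different nuclear genes. Several cytosolic enzymes sit together in a multisynthetase complex held by scaffold proteins, here represented by Dars, Eprs, Iars, Kars, Lars, Mars, Qars and Rars. Gars and Kars each supply both compartments from 1 gene, and Eprs carries both the glutamyl- and the prolyl-tRNA synthetase. PTBP1, the protein removed in KO mice, binds pyrimidine-rich RNA and controls alternative splicing, and red cell progenitors on their way to hemoglobin production are cells with a high demand for protein synthesis.

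Total estimated counts per library ran from 15956408 to 29226287. Ptbp1 was at 90.3, 108 and 96.3 CPM (counts scaled to TMM-adjusted library size) in KO HSC against 221, 208 and 196 in WT HSC, at 189, 187 and 232 against 595, 697 and 787 in preMegE, and at 298, 303 and 318 against 1116, 1272 and 1345 in preCFU-E. Ptbp1 RNA was therefore lower in KO libraries but not at 0, with log2 changes of -1.09, -1.77 and -2.02. Its paralog Ptbp2 was higher, by 1.04, 2.22 and 3.78 on the log2 scale (edgeR called both in all 3 populations). The HSC genes Hlf and Mecom were highest in HSC, and the red cell genes Klf1 and Car1 rose at both steps in both genotypes (edgeR). Of 7 HSC markers, 7 fell from HSC to preMegE and 6 from preMegE to preCFU-E in both genotypes. Of 6 preMegE markers, 4 rose and 2 fell at the first of these steps in WT, and 3 rose and 2 fell in KO. Of 6 preCFU-E markers, 6 and 4 rose at the WT steps and 5 and 5 at the KO steps. Of 5 granulocyte and monocyte genes, 2 rose and 1 fell at the first WT step. HSC libraries held 6434 to 8617 CPM of Xist and at most 1.05 CPM of the Y-linked Eif2s3y, whereas the other 12 libraries held at most 1.09 CPM of Xist and at least 38.3 CPM of Eif2s3y. A difference between HSC and preMegE therefore cannot be told apart from one of sex. In bulk RNA of a sorted population, fewer cells of a kind and less RNA per cell cannot be told apart either.

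In the knockout, the amount of RNA from no synthetase gene passed the test in any population. EdgeR's quasi-likelihood test called 0 of 36 members in HSC, preMegE and preCFU-E, where it called 0.844%, 0.0603% and 0.153% of all genes tested at an adjusted p below 0.05. At an unadjusted p below 0.05, 4 members were higher and 2 lower in KO HSC, 3 were lower in KO preMegE and 0 differed in preCFU-E, where 13.7%, 4.92% and 3.68% of all genes had such a p in either direction. The 6 of 36 in HSC are near that background. DESeq2 called 1 member in HSC, where it called 647 of all 21565 genes, so that 1 of 36 is near that background. It called 0 members in preMegE and preCFU-E (59 and 77 of all genes). Limma voom called 0 in all 3 (307, 13 and 24 of all genes). Standard errors of these log2 changes ran from 0.13 for Lars to 0.42 for Pars2.

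In preMegE cells all 20 cytosolic enzymes were at a lower mean in KO than in WT. Their median log2 change was -0.27, from -0.54 for Tars to -0.03 for Farsa, and the median over all genes tested was 0.01. Of the 16 mitochondrial enzymes 11 were lower, with a median of -0.19; with counts scaled by transcript length 8 were lower and 8 higher, with a median of -0.001. The 8 enzymes of the multisynthetase complex had a median of -0.28 and the 12 others in the cytosol -0.25. Libraries of the 2 genotypes did not overlap for 7 members, all lower in KO: Kars, Lars, Mars, Aars2, Mars2, Rars2 and Sars2. Over all genes, 6.24% were lower in KO without overlap and 6.02% higher.

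Lars, the leucine enzyme, which also senses leucine for the mTORC1 growth pathway, had the smallest p of the 36 in preMegE. It was at 68.7, 77.3 and 69.9 CPM in KO preMegE and at 96.3, 107 and 96.8 CPM in WT preMegE, a log2 change of -0.47 ± 0.13 (SE), with an unadjusted p of 0.00165 and an adjusted p of 0.495 (edgeR). All 3 KO libraries lay below all 3 WT libraries. Mars, the methionine enzyme, was at 36.5, 45.6 and 44.7 CPM in KO and 52.6, 58.1 and 71.5 in WT (-0.52 ± 0.20, edgeR adjusted p 0.912). Of the mitochondrial enzymes, Sars2 (serine) was at 4.10, 4.58 and 5.84 CPM in KO and 6.75, 6.21 and 7.82 in WT, and Aars2 (alanine) at 6.90, 5.30 and 6.23 in KO and 7.84, 8.01 and 9.89 in WT (edgeR adjusted p 1 for both). None of the 4 passed the adjusted threshold. The size of the list's shift depended on single libraries: the cytosolic median was -0.17 without KO library 1 and -0.44 without WT library 1, which had the lowest sum of cytosolic enzymes of its group. WT library 1 held 24.8% of its reads in mitochondrially encoded genes against 15.2% and 14.7% in the other WT preMegE libraries and 18.6% to 26.9% in the KO ones. With mitochondrially encoded genes left out of the fit, the cytosolic median was -0.27, as before.

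In HSC the 2 lists stayed near 0, with medians of 0.05 for cytosolic and 0.08 for mitochondrial enzymes beside 0.01 over all genes. Aars, the alanine enzyme, was at 35.1, 30.5 and 34.1 CPM in KO HSC and at 18.6, 29.2 and 20.8 in WT HSC (log2 change 0.54 ± 0.19, edgeR adjusted p 0.201). Gars, the glycine enzyme of both compartments, was at 35.7, 31.7 and 43.9 CPM in KO and 26.8, 30.0 and 29.1 in WT (0.37 ± 0.20, adjusted p 0.435, edgeR). Lars lay the other way, at 47.0, 37.0 and 43.8 CPM in KO and 48.8, 58.2 and 51.2 in WT (-0.31 ± 0.13, adjusted p 0.301, edgeR). Lars2 had a log2 change of -0.47, on counts that are uncertain (below). Non-overlapping libraries were found for 3 members higher (Aars, Eprs and Gars) and 2 lower (Lars and Lars2), against 5.8% and 6.31% of all genes. Wars2, the mitochondrial tryptophan enzyme, was the member that DESeq2 called and was named here after its values were seen. It was at 16.2, 29.0 and 31.0 CPM in KO and 12.4, 19.0 and 15.2 in WT, groups that overlap (0.71 ± 0.22, edgeR adjusted p 0.143, DESeq2 adjusted p 0.045). EdgeR called it without KO library 1 (0.96, adjusted p 0.0184), and called Nars2, for asparagine, as lower without KO library 3 (-0.76, adjusted p 0.0364).

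In preCFU-E cells the medians were 0.01 for cytosolic and 0.03 for mitochondrial enzymes, beside -0.00 over all genes. The 4 members without overlap had small changes, Cars2 (cysteine) 0.28 ± 0.23, Vars2 (valine) 0.26 ± 0.24, Rars2 (arginine) -0.19 ± 0.21 and Sars (serine) 0.13 ± 0.16, each with an edgeR adjusted p of 1. Cars2, for example, was at 29.5, 30.2 and 29.8 CPM in KO and 23.97, 25.3 and 24.6 in WT. The background without overlap was 6.62% of genes higher and 7.41% lower. No member differed in its KO effect between populations by edgeR: 0 of 36 were called for preMegE against HSC and 0 of 36 for preCFU-E against preMegE, where 0.0325% and 0.0% of all genes were called. At an unadjusted p below 0.05, 6 members differed in the first of these tests (8.15% of all genes) and 0 in the second (2.62%). DESeq2 and voom called 0 in both.

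**Figure D1:**
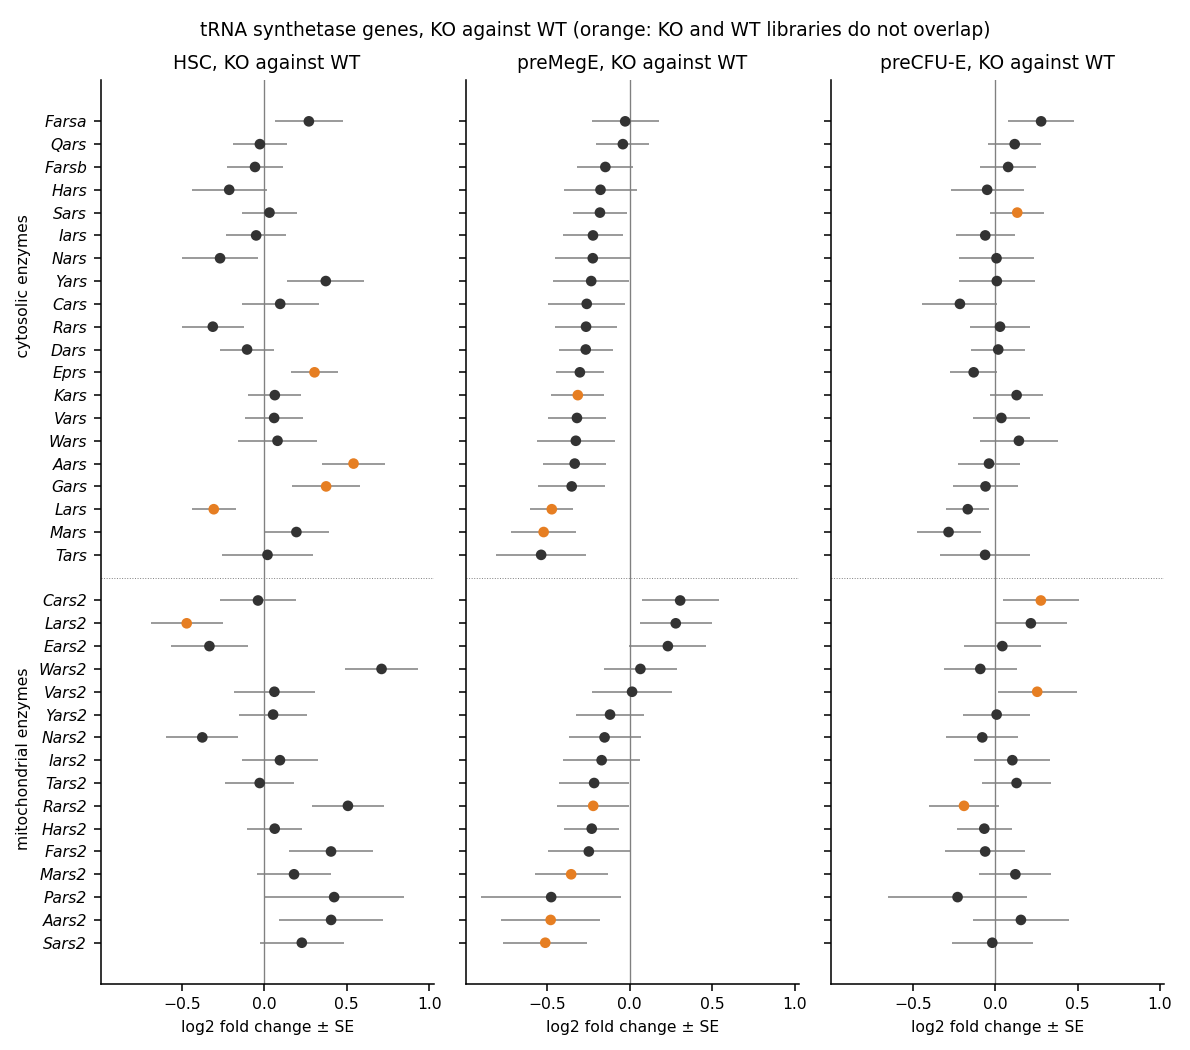
Log2 fold change of each synthetase gene in KO against WT libraries (horizontal axis, ± SE from edgeR, n = 3 per group) in HSC, preMegE and preCFU-E. Orange points are genes whose KO and WT libraries do not overlap, with cytosolic enzymes above the dotted line and mitochondrial ones below; all 20 cytosolic points in preMegE lie left of 0, and none of the 36 genes passed the adjusted threshold in any panel.

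For 1 synthetase gene, the transcripts made differed between KO and WT. A 24-base exon of Mars near the 3′ end of the gene was nearly absent from WT progenitors and present in a large share of Mars transcripts in KO progenitors. Mars lies at chr10:127296221-127311786 on the minus strand (GRCm38), and the exon at chr10:127296717-127296740. The long coding transcript Mars-206 (2962 bases) holds the exon, Mars-201 (2939 bases) skips it, and 24 bases keep the reading frame. The exon and the intron bases before it are shown because PTBP1 is known to bind pyrimidine-rich stretches upstream of the exons it represses. The sequence below runs 5′ to 3′ on the minus strand of chr10:127296717-127296840, and the capitals mark the exon.
Mars exon with 100 bases of upstream intron: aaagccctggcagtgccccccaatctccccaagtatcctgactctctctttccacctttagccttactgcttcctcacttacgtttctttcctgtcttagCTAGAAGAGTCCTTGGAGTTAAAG
The whole intron has 132 bases and is 67.4% pyrimidine, where the median over 7707 introns of the annotation, each held whole by a retained-intron transcript and read over its last 132 bases, was 53.8% and 95.5% of them had a lower share. CTCTCT occurs in it as 2 overlapping matches, and 11.4% of those introns hold it. TCTT occurs 3 times, and 66.3% of the introns hold it. Both motifs were searched on the transcribed strand, and a match is a description of these letters only.

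Of the Mars RNA from transcripts that either hold or skip the exon, the share with it (percent spliced in, from TPM, a read share corrected for transcript length) was 54.4%, 56.8% and 64.1% in KO preCFU-E cells and 5.45%, 4.26% and 5.43% in WT preCFU-E cells. In preMegE cells it was 56.7%, 54.5% and 34.2% in KO and 0.822%, 0.756% and 0.475% in WT. In HSC the share was 50.2%, 31.7% and 37.8% in KO and 0%, 13.9% and 22.2% in WT. KO and WT libraries did not overlap in any population. The differences were 53.4 percentage points in preCFU-E, 47.8 in preMegE and 27.9 in HSC. Limma on the logit scale, over 8050 cassette exons, gave adjusted p values of 0.0356, 0.0136 and 0.12. The rule for a call asked for a change of 10 points or more beside the adjusted p of 0.05, and 0.596%, 0.137% and 0.832% of all exons were called higher in those populations. Of 30 cassette exons tested in 16 members, this was the only one called between KO and WT. The difference of its KO effect between populations was not called (adjusted p 0.625 and 1, limma).

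Over the full-length transcripts alone, KO libraries again lay above WT libraries in every population, with lower shares in KO than over all transcripts. Mars-206 had 590, 753 and 940 estimated reads in KO preCFU-E and 22.5, 64.9 and 22.2 in WT preCFU-E, while Mars-201 had 1030, 1199 and 1436 in KO and 2934, 3112 and 2469 in WT. As a share of the 2 together, Mars-206 was 36.2%, 38.4% and 39.4% in KO preCFU-E and 0.752%, 2.02% and 0.882% in WT. In preMegE it was 32.9%, 16.9% and 16.7% in KO and 2.05%, 1.71% and 0.942% in WT. In HSC it was 0.640%, 1.79% and 4.87% in KO, and Mars-206 was listed at 0 in all 3 WT libraries. The rest of the difference lay in short annotated fragments. Mars-203, a fragment of 621 bases that holds the exon, had 169, 252 and 320 estimated reads in KO preCFU-E against 49.4, 30.6 and 35.2 in WT, and 101, 48.4 and 55.2 in KO HSC against 0, 15.3 and 38.9 in WT. Mars-204, a retained-intron fragment of 467 bases that skips the exon, held 52.7%, 52.2% and 51.2% of Mars TPM in WT preCFU-E. No junction reads were counted here: all these values are Salmon's estimates per transcript. The preCFU-E call was lost when any 1 of its 6 libraries was left out (adjusted p 0.117 to 0.149, limma). The preMegE call was lost when any but KO library 3 was left out (0.0188 to 0.0991), and HSC passed without WT library 3 (33.0 points, adjusted p 0.0317).

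Over whole transcripts, edgeR's diffSpliceDGE called Mars in KO preMegE (adjusted Simes p 0.00261) as the only 1 of 25 members that could be tested, where 0.139% of 9361 genes were called. It called 0 of 25 members in preCFU-E (0.235% of genes, Mars adjusted p 0.559) and 0 of 25 in HSC (4.38% of genes). That test used transcripts of at least 5% of their gene's TPM, which left out Mars-206. With the 6 preCFU-E libraries fitted alone, Mars was called there too (adjusted p 7.12e-05, edgeR). The preMegE call was lost without WT library 1 or WT library 2. It came from the short fragment Mars-203, with a log2 change relative to its gene of 10.1 (p 7.44e-07, diffSpliceDGE). Mars-201 had -0.10 and Mars-204 -1.28 (p 0.844 and 0.228, diffSpliceDGE). All transcripts with the exon together held only 0.475% to 0.822% in WT preMegE, so Mars-203 was near 0 there and the size of its change is uncertain.

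**Figure D2:**
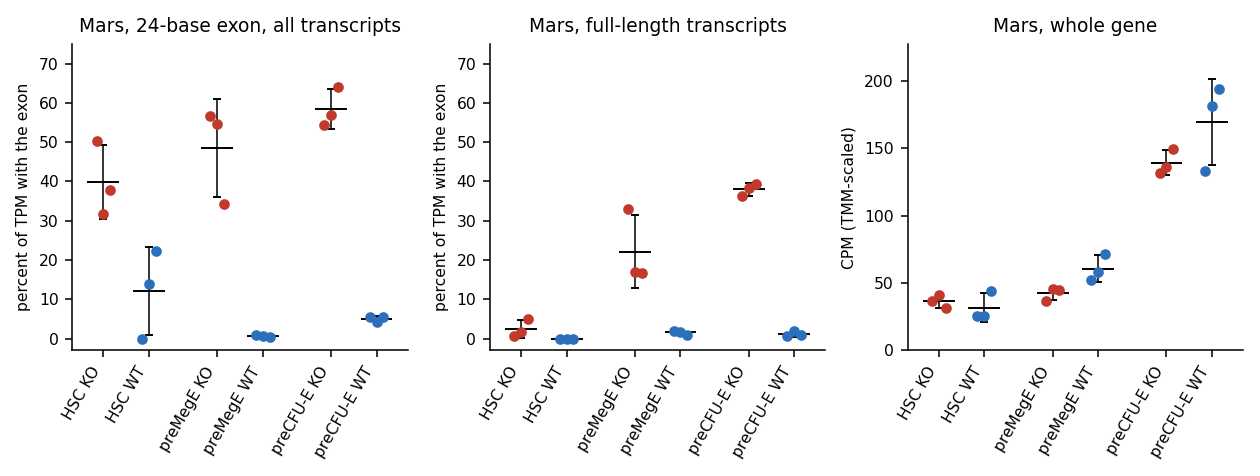
Share of Mars TPM with the 24-base exon over all transcripts (left) and over the full-length pair Mars-206 and Mars-201 (middle), in percent, and CPM of the whole gene (right), by group. Points are libraries, bars the mean ± SD (n = 3); KO libraries lie above WT libraries in both exon panels of every population, while the whole gene rose at both steps in WT and at the second step in KO.

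The synthetase genes that passed the test did so between stages. Between WT HSC and WT preMegE, 19 of 20 cytosolic enzymes rose and 0 fell, with a median log2 change of 1.14, and between WT preMegE and WT preCFU-E all 20 rose, with a median of 1.20. Over all genes tested, 25.5% rose and 28.2% fell at the first step, with a median of -0.43, and 15.6% rose and 11.2% fell at the second, with a median of -0.18 (edgeR). KO cells showed the same directions: 17 of 20 rose and 0 fell from HSC to preMegE (median 0.90), and 20 of 20 rose from preMegE to preCFU-E (median 1.47). In KO, 25.4% of all genes rose and 27.3% fell at the first step (median -0.36), and 18.4% rose and 17.6% fell at the second (median -0.32). With counts scaled by transcript length, 17 and 17 of the 20 were called at the WT steps and 15 and 20 at the KO steps. The summed CPM of the 20 genes in KO mice was 867 ± 83.8 (HSC), 1544 ± 196 (preMegE) and 4184 ± 309.5 (preCFU-E), and in WT mice 841 ± 66.9 (HSC), 1870.4 ± 278 (preMegE) and 4258 ± 697 (preCFU-E, SD, n = 3 each). The first step was smaller in TPM, where the KO sums of HSC (545, 496 and 600) and preMegE (514, 684 and 570) overlapped. In WT the TPM sums did not overlap (490, 467 and 480 in HSC, 539, 852 and 911 in preMegE).

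The enzymes of the multisynthetase complex rose at both steps. Kars, the lysine enzyme, had the largest change of the cytosolic list at the first step. In KO it was at 31.5, 37.0 and 40.8 CPM in HSC, 87.7, 93.8 and 97.1 in preMegE and 245, 241 and 265 in preCFU-E. In WT it was at 34.7, 43.7 and 26.1 in HSC, 97.5, 118 and 131 in preMegE and 204, 240 and 242 in preCFU-E. No library of a stage overlapped with one of the next. Its log2 changes were 1.35 ± 0.16 and 1.43 ± 0.16 in KO and 1.73 ± 0.16 and 0.99 ± 0.16 in WT. Eprs, for glutamate and proline, was at 143, 142 and 119 CPM in WT HSC, 265, 302 and 322 in WT preMegE and 589, 732 and 810 in WT preCFU-E (1.14 ± 0.15 and 1.26 ± 0.15). Iars, the isoleucine enzyme, was at 86.2, 122 and 105, then 187, 219 and 247, then 432, 554 and 751 CPM at the same WT stages (1.06 ± 0.18 and 1.41 ± 0.18). Mars was the member of the complex that rose in WT but was not called in KO at the first step: 0.22 ± 0.20 in KO (36.5 to 45.6 CPM in KO preMegE and 31.6 to 41.0 in KO HSC), against 0.93 ± 0.20 in WT. That difference was not called either (edgeR adjusted p 0.481). All other members of the complex rose at both steps in both genotypes.

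Outside the complex, Gars rose at both steps, at 26.8, 30.0 and 29.1 CPM in WT HSC, 71.2, 94.3 and 111 in WT preMegE and 208, 275 and 300 in WT preCFU-E (1.69 ± 0.21 and 1.5 ± 0.20). Hars, the histidine enzyme, was at 17.2, 21.0 and 15.9, then 32.0, 44.4 and 55.0, then 105, 135 and 137 CPM (1.28 ± 0.23 and 1.52 ± 0.23). Aars was at 18.6, 29.2 and 20.8, then 45.9, 63.4 and 74.6, then 128, 172 and 183 CPM (1.42 ± 0.19 and 1.39 ± 0.19). Its rise at the first step was 0.55 ± 0.19 in KO, a call lost without KO HSC library 2 or KO preMegE library 3 (adjusted p 0.0537 and 0.0982, edgeR), and the difference from WT was not called (edgeR adjusted p 0.340). Wars, the tryptophan enzyme, had log2 changes of 1.06 ± 0.24 at the first step and 1.21 ± 0.24 at the second in KO, and of 1.47 ± 0.24 and 0.74 ± 0.24 in WT. Its second WT call was lost without preMegE library 1 or 2 or preCFU-E library 2 or 3 (0.52 to 0.79, adjusted p 0.0501 to 0.19, edgeR). Sars had 1.23 ± 0.17 and 1.13 ± 0.17 in KO and 1.44 ± 0.17 and 0.81 ± 0.16 in WT. Differences between steps were not tested.

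Cars, the cysteine enzyme, was the exception among cytosolic genes. It was at 8.56, 5.77 and 6.45 CPM in WT HSC and at 7.51, 9.96 and 10.6 in WT preMegE, groups that overlap and a change that edgeR did not call (0.43 ± 0.23), and at 24.1, 32.0 and 38.2 in WT preCFU-E. From preMegE to preCFU-E its change was 1.79 ± 0.24 in KO, next to Gars with 1.80 ± 0.21, and 1.75 ± 0.23 in WT, where it was the largest of all members. In KO cells Cars, Mars and Yars, the tyrosine enzyme, did not pass at the first step.

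**Figure D3:**
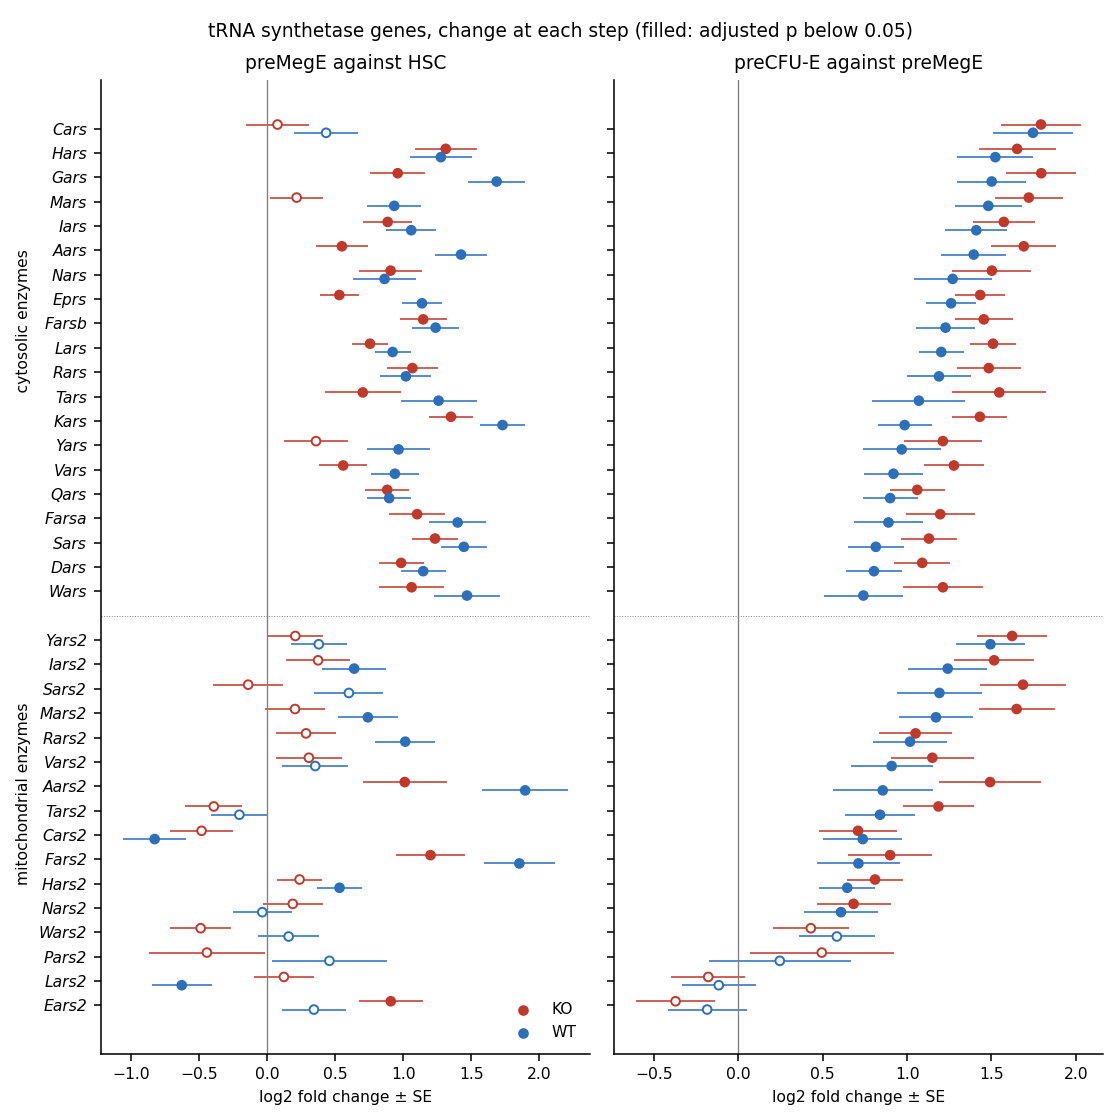
Log2 fold change (horizontal axis, ± SE from edgeR, n = 3 per group) of each synthetase gene from HSC to preMegE (left) and from preMegE to preCFU-E (right), in KO (red) and WT (blue). Filled points passed an adjusted p below 0.05; all 20 cytosolic genes rose at the second step in both genotypes, and Cars2 and Lars2 were the 2 members that fell, at the first step in WT, both calls that were lost when single libraries were left out.

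The mitochondrial enzymes rose in smaller numbers. In KO 3 of 16 rose and 0 fell at the first step (median 0.21), where 25.4% of all genes rose, and 12 rose and 0 fell at the second (median 0.97), where 18.4% rose. In WT 6 rose and 2 fell at the first step (median 0.42), where 25.5% of all genes rose and 28.2% fell, and 12 rose and 0 fell at the second (median 0.79), where 15.6% rose. The first-step count in KO is thus no higher than that background. These counts depended on the processing: with counts scaled by transcript length 6 mitochondrial members were called at the second KO step, 3 at the first WT step and 4 at the second, and without WT preMegE library 1 the second WT step had 6. At the first KO step DESeq2 called 6, and 7 were called without KO HSC library 2. Aars2 had the largest rise of all members from WT HSC to WT preMegE, at 7.84, 8.01 and 9.89 CPM in preMegE and 1.48, 3.83 and 1.61 in HSC (1.90 ± 0.31), and Fars2, the phenylalanine enzyme, followed, at 11.3, 15.5 and 15.9 CPM in preMegE and 2.59, 3.69 and 5.59 in HSC (1.85 ± 0.26). The libraries of the stages did not overlap in either gene. Aars2 is a low count in HSC. With counts scaled by transcript length its WT change was 0.30 and not called (edgeR adjusted p 0.499), and its direction in KO turned (-0.54). So did that of Hars2, for histidine, which rose by 0.53 ± 0.17 at the first WT step (-0.53 with scaled counts). With scaled counts 21 of the 36 members, cytosolic and mitochondrial, were called at the second WT step, in place of 32.

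Cars2 went the other way first. It fell to 13.4, 14.1 and 16.9 CPM in WT preMegE, against 21.4, 24.7 and 32.5 in WT HSC (-0.83 ± 0.23), and was at 23.97, 25.3 and 24.6 in WT preCFU-E (0.74 ± 0.23). The fall was not called without WT HSC library 3 (-0.60, edgeR adjusted p 0.0533), nor the rise after it without any 1 of 5 of the 6 libraries compared (adjusted p 0.0626 to 0.125, edgeR). Yars2, for tyrosine, was at 17.6, 17.5 and 20.8 CPM in WT preMegE and 12.9, 16.9 and 13.2 in WT HSC (0.38 ± 0.21, not called), and had the largest mitochondrial rise at the second step in WT, at 43.6, 51.0 and 62.9 CPM in preCFU-E (1.49 ± 0.21). Iars2 rose at both steps in WT, at 31.6, 59.9 and 49.7, then 69.6, 79.1 and 71.0, then 152, 182 and 186 CPM, although the first rise was not called without HSC library 1 (0.46, edgeR adjusted p 0.116), without preMegE library 2 (0.61, 0.0664) or with scaled counts (0.44, 0.186). Mars2, for methionine, rose likewise (0.74 ± 0.22 and 1.17 ± 0.22). Ears2, the mitochondrial glutamate enzyme, was not called in either WT step (0.34 ± 0.23 and -0.19 ± 0.23), nor was Pars2, the proline enzyme, a gene of 3.5 to 7.27 CPM in WT libraries (0.46 ± 0.42 and 0.25 ± 0.42), nor Wars2 (0.16 ± 0.22 and 0.58 ± 0.22). Ears2 rose in KO at the first step (0.91 ± 0.24), and that difference between genotypes was not called (edgeR adjusted p 0.71).

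Where an amino acid has an enzyme of each kind, the cytosolic gene usually changed more. Of 16 such pairs, with Eprs set against Ears2 and Pars2, and both subunits of the cytosolic phenylalanine enzyme against Fars2, the cytosolic log2 change was larger in 13 at the first WT step, by a median of 0.63, and in 14 at the second, by 0.27. In KO it was larger in 12 and 14 pairs. The first-step exceptions in WT were alanine and both phenylalanine pairs. The widest gap there was that of threonine, where Tars had 1.26 and Tars2 -0.20. No test was made of these counts, since the genes are not replicates.

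Per length, in TPM, cytosolic enzymes were the more abundant RNAs, and more so in progenitors. The 20 cytosolic genes together had 2.99, 2.46 and 2.77 times the TPM of 15 mitochondrial genes (Lars2 left out, see next paragraph) in KO HSC and 3.19, 2.80 and 3.21 times in WT HSC. The ratio was 3.68, 5.52 and 5.92 in KO preMegE and 5.63, 6.00 and 6.22 in WT preMegE, and 6.77, 7.21 and 6.87 in KO preCFU-E and 6.37, 7.05 and 7.36 in WT preCFU-E. All preCFU-E and preMegE libraries lay above all HSC libraries, and KO and WT overlapped in each population. In TPM the mitochondrial sum fell from HSC to preMegE, from 156 ± 8.9 to 128 ± 28.0 in WT and from 200 ± 17.1 to 120 ± 21.8 in KO (SD). The cytosolic sum went from 479 ± 11.8 to 767 ± 199.6 in WT and from 547 ± 52.4 to 590 ± 86.8 in KO. In TPM the higher ratio in preMegE thus goes with a lower mitochondrial sum, and in KO the cytosolic sums overlapped. In summed CPM the 15 mitochondrial genes went the other way, from 228 ± 27.9 to 307 ± 15.8 in WT and from 247 ± 22.9 to 276 ± 11.0 in KO (SD). The direction of the mitochondrial sum at this step therefore depends on the measure. KO preMegE library 1 was low for its group: the KO difference in the mean log2 ratio was -0.27 with it and -0.06 without it. In WT preCFU-E the highest cytosolic levels were those of Farsb (126 ± 11.9 TPM), a phenylalanine enzyme subunit, Dars (122 ± 16.7), for aspartate, and Iars (116 ± 29.4), which do not differ beyond their SD, and the lowest was Cars (12.4 ± 2.1). In WT HSC the order began with Dars (49.4 ± 4.2), Farsb (46.8 ± 12.7) and Qars (41.8 ± 5.9), for glutamine, which again overlap, and ended with Aars (6.54 ± 0.96). Among mitochondrial genes Yars2 led in WT preCFU-E (43.7 ± 8.7 TPM) and Cars2 in WT HSC (25.6 ± 8.9). TPM is relative to all RNA of a library, so these levels order genes within a population.

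Lars2, the mitochondrial leucine enzyme, was left out of sums because its counts are uncertain. It was at 9747 to 22978 CPM, where no other member exceeded 810 CPM, and 97.8% to 99.9% of its estimated reads lay in Lars2-209, a transcript of 3756 bases annotated as subject to nonsense-mediated decay. Between bases 3023 and 3209 that transcript is 94.8% to 98.6% identical, in 3 alignments of 50 to 97 bases, to the transcripts AA474408-201 and Gm15564-202. Reads of these genes may have been divided among them. AA474408 itself was at 138 to 398 CPM, and the reason for the high Lars2 count was not tested. Lars2 fell at the first WT step (-0.63 ± 0.22) and was not called in the other steps. The fall was not called without HSC library 2, preMegE library 2 or preMegE library 3, with scaled counts, or with no filter on low counts (-0.45 to -0.54, edgeR adjusted p 0.104 to 0.147).

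**Figure D4:**
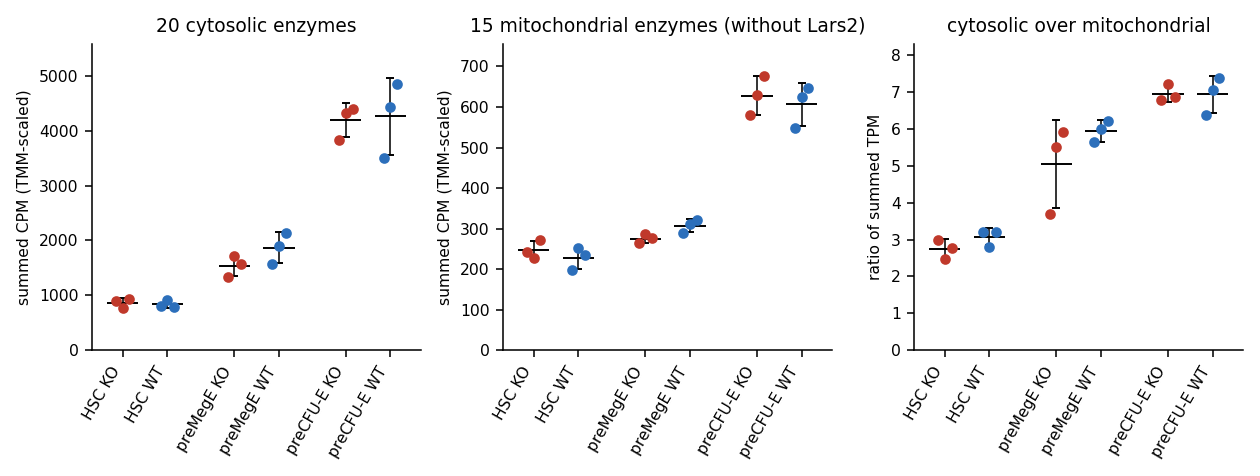
Summed CPM of the 20 cytosolic genes (left) and of 15 mitochondrial genes without Lars2 (middle), and the ratio of their summed TPM (right), by group. Points are libraries, black bars the mean ± SD (n = 3). Summed CPM and ratio are higher in preCFU-E than in HSC libraries of both genotypes without overlap. The mitochondrial sum in TPM, not drawn, was lower in preMegE than in HSC libraries, whereas the mean of the summed CPM drawn here was higher.

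Promoters of all members with a sequence at hand were searched for 2 elements, whether or not the gene rose. ATF4, the transcription factor of the amino acid response, is known to bind C/EBP-ATF elements, and MYC binds the E-box. RefSeq promoter windows (GRCm38.p6, 250 bases before to 50 after the start site) were found for 13 cytosolic and 14 mitochondrial members. The element TGATGNAA, searched on both strands, was in windows of 5 of 13 cytosolic members (Aars, Gars, Iars, Tars and Yars), 0 of 14 mitochondrial members and 4.51% of 27025 genes. CACGTG, its own reverse complement, was in windows of 4 of 13 cytosolic members (Aars, Farsb, Iars and Tars), 1 of 14 mitochondrial members (Ears2) and 8.09% of genes. The bases around 1 match of the first element in each of the 5 genes are shown on the gene's strand, with the match in capitals, since they are the members that hold it.
Aars, chr8:111033704-111033763, plus strand: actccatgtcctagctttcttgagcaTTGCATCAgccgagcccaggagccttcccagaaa
Gars, chr6:55037945-55038004, plus strand: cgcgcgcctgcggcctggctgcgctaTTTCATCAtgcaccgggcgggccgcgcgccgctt
Iars, chr13:49682111-49682154, plus strand: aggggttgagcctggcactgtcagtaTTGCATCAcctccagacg
Tars, chr15:11399640-11399699, minus strand: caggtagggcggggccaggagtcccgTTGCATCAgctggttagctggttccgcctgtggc
Yars, chr4:129189880-129189927, plus strand: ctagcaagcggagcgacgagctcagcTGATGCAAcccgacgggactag
All 5 genes with the element had log2 changes between 0.96 and 1.69 at the first WT step and between 0.97 and 1.5 at the second. The other cytosolic genes ranged from 0.43 to 1.73 and from 0.74 to 1.75. Those others include genes without a window, which were not searched. Cars (0.43 and 1.75) and Wars (0.74 at the second step) are among them. Of searched cytosolic genes without the element, Mars had the largest second-step change (1.48), just below that of Gars (1.5). No factor's binding was measured.

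Partner proteins and genes of amino acid supply were counted from 2 further lists. Of 14 accessory factors, which hold the complex together or proofread and amidate tRNAs, 5 rose and 0 fell from WT HSC to WT preMegE, and 10 rose and 0 fell from WT preMegE to WT preCFU-E, where 25.5% and 15.6% of all genes rose. In KO 6 rose and 1 fell, then 10 rose and 0 fell. The scaffold genes were among them: Aimp2 rose by 1.84 and 1.17 in WT, Eef1e1 by 1.58 and 1.43 and Aimp1 by 1.01 and 0.71 on the log2 scale. Mtfmt, which formylates the mitochondrial initiator tRNA, passed at no step. Of 15 tested genes of the amino acid response, 7 rose and 4 fell at the first WT step, and 8 rose and 1 fell at the second (KO, 6 and 0, then 8 and 1). Over all genes 28.2% fell at the first WT step and 11.2% at the second, so the counts of falling genes are near the background. The largest changes at the first WT step were falls, of Cebpb by 3.61 and of Trib3 by 3.51 on the log2 scale, and neither passed in KO.

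Asns, the asparagine synthetase and a known target of ATF4, rose at the second step alone. It was at 8.02, 8.94 and 13.6 CPM in HSC, 8.65, 10.3 and 8.87 in preMegE and 90.3, 143 and 147 in preCFU-E of KO mice, and at 9.40, 11.6 and 7.76, then 9.01, 9.08 and 12.1, then 110, 172 and 155 CPM at the same stages of WT mice. Its log2 changes at that step were 3.77 in KO and 3.86 in WT (edgeR). Atf4, named for its role and not for its size of change, rose at both steps in both genotypes (0.87 and 1.30 in KO, 0.79 and 0.98 in WT). Slc7a5, a transporter of large neutral amino acids, rose by 2.13 and 1.33 in WT. Ddit4, a stress gene that restrains mTORC1, fell at both WT steps (-1.89 and -1.78). Neither list had a member called between KO and WT in any population by edgeR.

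Transcript usage of the synthetase genes changed mainly between HSC and preMegE. From WT HSC to WT preMegE, 8 of 25 members were called (9.92% of 9361 genes): Farsa, Farsb, Iars, Mars, Wars, Cars2, Ears2 and Iars2. The Mars call came again from the fragment Mars-203, near 0 in WT preMegE. Its log2 change relative to the gene was -8.31, against -0.03 for Mars-201 and 1.57 for Mars-204. From WT preMegE to WT preCFU-E 0 of 25 were called (0.15% of genes). For Farsa, a phenylalanine enzyme subunit, the coding transcript Farsa-201 held 80.3%, 94.6% and 93.5% of the gene's TPM in WT preMegE and 55.4%, 27.1% and 30.4% in WT HSC, where retained-intron transcripts held more (adjusted p 0.0213, edgeR). Iars moved between 2 coding transcripts: Iars-202 held 52.4%, 59.5% and 66.7% in WT preMegE and 0%, 8.32% and 0% in WT HSC, and Iars-201 fell to 37.1%, 34.9% and 21.7%, against 76.8%, 88.3% and 92.8% in WT HSC (adjusted p 0.0359, edgeR).

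Among the 3 mitochondrial genes called, a coding transcript held a larger share in WT preMegE in each. Iars2-201 held 90.5%, 86.0% and 85.7% of Iars2 TPM in WT preMegE and 46.0%, 47.2% and 57.6% in WT HSC (adjusted p 0.0133, edgeR), and Cars2-201 held 33.9%, 44.1% and 50.4% in WT preMegE and 10.4%, 1.74% and 1.63% in WT HSC (0.0172). Ears2-201, the coding transcript of Ears2, held 23.2%, 6.07% and 31.1% in WT preMegE and was listed at 0 in all 3 WT HSC libraries (0.0314). In KO preMegE it held 0%, 2.76% and 2.84%, and in KO HSC 4.10%, 0% and 33.4%, values that overlap; the difference between genotypes was not tested. Shares of retained-intron transcripts were thus higher in HSC for several of these genes, and HSC libraries also had 27.3% to 39.2% of reads in mitochondrially encoded genes, against 13.2% to 30.2% in the progenitors. The part of RNA quality in the result was not tested. The count of 8 was 3 (Farsa, Mars and Iars2, without Cars2 and Ears2) when only HSC and preMegE libraries were fitted, and 2 to 7 when 1 library was left out.

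**Figure D5:**
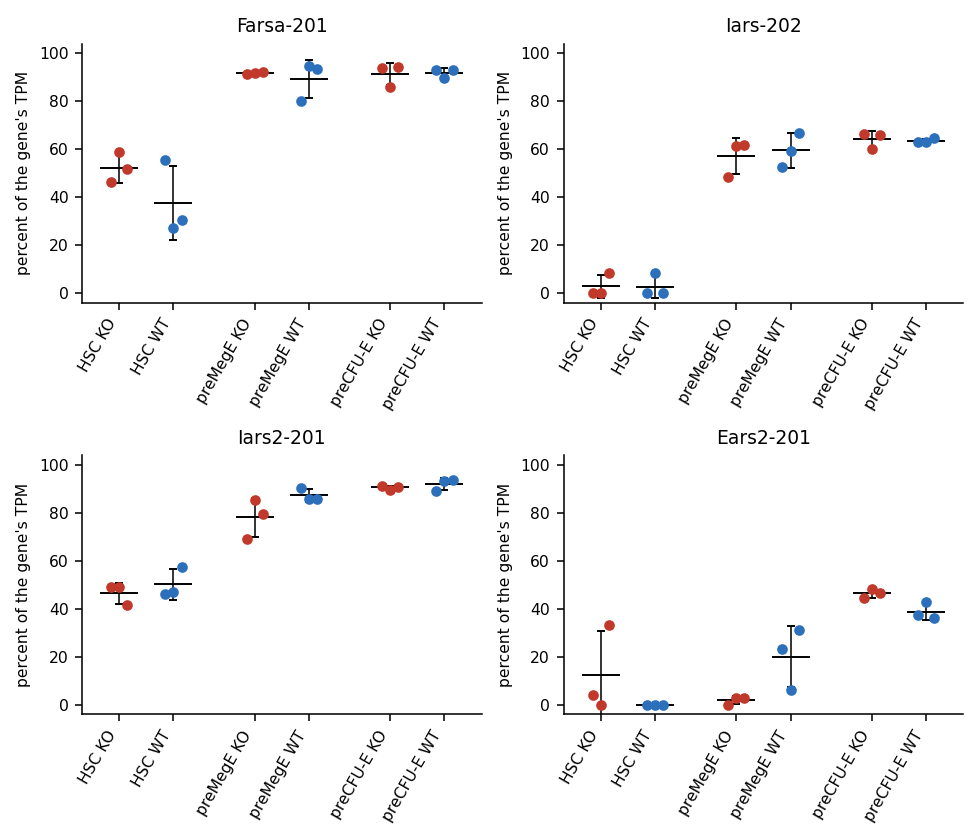
Share of the gene's TPM (percent) held by the coding transcripts Farsa-201, Iars-202, Iars2-201 and Ears2-201, by group. Points are libraries, bars the mean ± SD (n = 3); in the first 3 genes all 6 preMegE libraries lie above all 6 HSC libraries.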

How the data were processed

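The authors deposited, for each of 18 libraries, estimated counts of reads (expected counts) and TPM per transcript in the format of Salmon, version 0.12.0 per the submitters' processing notes, which name the builds mm10 and GRCm38.p6. RNA was amplified as total RNA with a NuGEN Ovation V2 kit, per the labels' protocols, which do not state that strand was kept. Transcripts were matched to GENCODE M21 (136176 of 136288), and estimated counts were summed per gene and rounded to whole numbers. Total counts were 15956408 to 29226287 per library, and precision rests on 3 libraries per group.

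Gene counts were tested with edgeR 4.0.16 (quasi-likelihood, TMM, filterByExpr, Benjamini-Hochberg, R 4.3.3) in 1 fit of all 18 libraries (a mean for each of 6 groups, 12 residual degrees of freedom). Transcript usage was tested with diffSpliceDGE (minimum share 5%). Cassette exons averaging 5 TPM or more and 2% to 98% inclusion were tested with limma 3.58.1 on the logit of percent spliced in (offset 0.01), a test chosen after the data were seen. DESeq2 1.42.0 and voom were alternatives. Fits were tested on simulated data. Members and gene lists were chosen with earlier results of these data known. Members called were named in order of the size of their log2 change, at most 10 per list with values; where under 4 were called between KO and WT, those without overlap between libraries were added up to 4. P-values measure the spread between these libraries. Replicate numbers in the labels paired WT preCFU-E with WT preMegE libraries (correlations of same-numbered deviations from group means 0.421, 0.162 and 0.381). In KO the same correlations were lower (0.0476, 0.128 and 0.146). Other groups compared showed no clear pairs by replicate number. The main fit used no pairs, and a fit with the replicate number as a block was an alternative. Exons of 13 members overlap exons of another gene, most on the opposite strand, and their reads cannot be told apart; the overlap was above 10% of exon bases in Iars2 (with Rab3gap2), Aars (with Exosc6) and Fars2 (with Nrn1 and Lyrm4).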

Additional observations from a re-analysis of the deposited data

How the results depend on the processing

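Counts over all 36 members stayed within 1.5 times of the value given, except for 1 member (Wars2) with DESeq2 in KO HSC, in place of 0, 21 with length-scaled counts at the second WT step, in place of 32, and leave-one-out counts in KO HSC. Counts of the 16 mitochondrial members moved more, as given beside them; at the first KO step they were 5 with DESeq2's size factors in edgeR, in place of 3. Leaving out 1 library at a time gave 0 to 1 members in KO HSC, 0 in the other KO comparisons and in both tests of the difference of KO effects, 25 to 27 and 24 to 29 at the WT steps, and 18 to 22 and 30 to 31 at the KO steps. Of values of single named members under alternatives, 1624 kept direction and side of the threshold, 95 lost the call and 3 turned, all with length-scaled counts: Hars2 at the first WT step (-0.53), Aars2 at the first KO step (-0.54) and Hars2 at the second KO step (-0.27). The cause was not tested. With DESeq2's size factors the median of all genes at the first WT step was -0.50.

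Transcript usage depended more on the settings. With a 10% minimum share 1 member (Wars) was called in KO HSC. With only the populations compared, 1 was called in KO preCFU-E (Mars), 3 at the first WT step and 1 at the second (Mars). Without 1 library the counts were 0 to 3 in KO HSC, 0 to 1 in KO preMegE, 0 in KO preCFU-E, 2 to 7 at the first WT step and 0 at the second. For the Mars exon, added after seeing the data, the full-length pair of transcripts gave 2.43 points (HSC), 20.6 (preMegE) and 36.8 (preCFU-E). Without 1 library the difference was 21.8 to 33.0, 43.7 to 54.9 and 50.6 to 55.4 points in that order of populations. The cytosolic to mitochondrial log2 ratio (KO minus WT in HSC, -0.17) was 0.12 with medians in place of sums, and 0.71 in place of 0.96 for the first WT step with CPM. Without 1 library the ratio was -0.23 to -0.09 (HSC), -0.40 to -0.057 (preMegE) and -0.05 to 0.05 (preCFU-E) between KO and WT, and 0.89 to 1.00 and 0.17 to 0.28 at the WT steps.

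Replicate numbers showed no clear pairs of KO with WT libraries: those of the same number had correlations of deviations of -0.0007 to 0.0148 (HSC), -0.0172 to 0.245 (preMegE) and -0.125 to 0.0742 (preCFU-E). Libraries of differing numbers in preMegE had -0.210 to 0.176, a range that overlaps, so pairs there are not excluded. Nor did the numbers clearly pair HSC with preMegE libraries (-0.00694 to 0.024 in KO, -0.091 to 0.0258 in WT). For preCFU-E and preMegE in KO, same-numbered libraries had correlations of 0.0476 to 0.146, above those of differing numbers (-0.141 to 0.00532). These were lower than in WT, and whether they mark pairs was not settled. The replicate block tied all stages of a genotype, HSC included, for steps, and same-numbered KO and WT libraries of a population for KO effects. A block of WT preMegE with WT preCFU-E libraries alone was not fitted. With a replicate block, 27 and 32 members were called at the WT steps, 19 and 32 at the KO steps and 0 between KO and WT. Tars at the first KO step was the named call lost, and at the second WT step the block changed no call. Usage counts were 0 in KO preMegE and 5 at the first WT step. The Mars exon had adjusted p values of 0.205 (preMegE) and 0.242 (preCFU-E, limma), with unchanged differences of 47.8 and 53.4 points. Those p values rest on pairs of KO and WT libraries that the correlations did not clearly show, and whether such pairs exist was not settled. Standard errors of 0.13 to 0.42 limit what could be called.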
